A study of Mus musculus with 4 samples.

Results

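Small nucleolar RNAs (snoRNAs) and small Cajal body RNAs (scaRNAs) were followed in ribosome-protected fragments from primary mouse myoblasts. The members were chosen by 2 values of the deposited table: a gene biotype of snoRNA or scaRNA, and a mean of at least 1 RPKM (reads scaled by gene length and library size) over the 4 libraries. Of 1558 snoRNA and scaRNA genes among the 55573 genes of the table, 155 qualified. Because a single read on so short a gene is worth more than 1 RPKM, the rule kept every gene with at least 1 read. The member nearest the limit was Gm22478, with a mean of 1.79 RPKM from 1 read, and the 1403 genes outside it were listed at 0 in all 4 libraries. By name, 40 members were Snord genes, 12 were Snora genes and 8 were Scarna genes. The other 95 carried other names, mostly of predicted genes (Gm).

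SnoRNAs are nuclear guide RNAs that do not code for protein. The box C/D class, named Snord, carries a C box and a D box, binds fibrillarin and directs ribose methylation of ribosomal RNA. The box H/ACA class, named Snora, ends in an ACA box, binds dyskerin and directs pseudouridylation. ScaRNAs use the same boxes to guide changes in the small nuclear RNAs of the spliceosome. In mammals most of these RNAs are released from introns of host genes, many of which code for ribosomal proteins, translation factors or snoRNA-binding proteins. A read on such a gene is a fragment recovered with ribosomes and says nothing of translation of the RNA.

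The sample titles call the assay Polysome-Seq, while the extraction text describes RNase I digestion and protected fragments, which is ribosome profiling. The libraries came from hind-limb muscle cells of 3-week-old C57BL/6j mice, collected on day 2 of proliferation. The group labelled WT had 2 libraries and the group labelled eIF5A knockout (eIF5A-KO) had 2, the latter from Pax7-CreERT2/+; eIF5A f/f mice given tamoxifen. Cre was driven by the Pax7 promoter, so deletion was limited to cells that expressed Pax7, and the sources differ on whether the WT littermates carried the Cre allele. The reads came to between 642429 and 704006 per library. Eif5a itself did not go down with the label. Its level was 34.9 and 65.2 RPKM in WT libraries 1 and 2, and 60.3 and 59.4 RPKM in the libraries labelled eIF5A-KO (log2 fold change 0.32, limma adjusted p = 0.839). The directions below are therefore between labels. Myoblast markers also differed between them, since the summed level of 6 genes (Myod1, Pax7, Myf5, Des, Cdh15 and Myog) was 299 and 172 RPKM under WT and 66.5 and 107 RPKM under eIF5A-KO. All 6 had a log2 fold change below 0, although limma called 0 at an adjusted p under 0.05 and 4 at an unadjusted p under 0.05 (limma-voom 0 and 3 of the 5 it tested), and Myf5 was at 0 in eIF5A-KO library 2. Summed fibroblast markers overlapped between the groups, at 402 and 229 against 667 and 283 RPKM, and endothelial markers stood at 102 and 95.1 against 131 and 106 RPKM. Immune markers stood at 28.1 and 38.5 against 23.9 and 24.6 RPKM, with Ptprc at 0 in 2 libraries. These sums cover unlike genes, since Adgre1 had a log2 fold change of 1.33, Cd68 of -0.36 and Lyz2 of -1.16. The 4 endothelial genes all lay above 0, from 0.05 to 1.01. limma called 0 genes of either list at an adjusted p under 0.05. The part of this difference in cell markers in the snoRNA values was not tested, and in bulk samples fewer cells of a type and less RNA per cell cannot be told apart.

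The sequences below are those of members whose levels are described in the text, taken from the GENCODE M21 transcripts (build GRCm38), where all 155 members had the same coordinates as in the deposited table. The first 4 are box C/D RNAs. Snord104 (chr11:106500993-106501062, plus strand) and Snord83b (chr15:80078498-80078591, minus strand) had the most reads of the genes that the table names Snord, Snord37 (chr10:81178950-81179013, plus strand) lies in an intron of Eef2, and Gm25835 (chr11:69668852-69668995, minus strand) lies in an intron of Eif4a1. Capitals mark the C box letters TGATGA within the first 20 bases and the D box letters CTGA within the last 15.
Snord104: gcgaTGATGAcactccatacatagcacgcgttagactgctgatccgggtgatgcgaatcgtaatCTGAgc
Snord83b: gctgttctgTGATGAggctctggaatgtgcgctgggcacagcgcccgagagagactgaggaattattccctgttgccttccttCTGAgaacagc
Snord37: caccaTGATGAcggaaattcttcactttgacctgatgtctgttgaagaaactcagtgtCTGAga
Gm25835: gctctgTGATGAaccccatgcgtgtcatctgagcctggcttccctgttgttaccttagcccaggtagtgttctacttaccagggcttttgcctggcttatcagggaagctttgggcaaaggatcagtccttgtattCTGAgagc

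The next 4 end in ACA, which is in capitals. Snora23 (chr7:110046364-110046547, plus strand), in an intron of Ipo7, was the Snora gene with the most reads. Gm25117 (chr10:111481493-111481636, plus strand) lies in Nap1l1. Gm25776 (chr12:91573430-91573572, minus strand) in Gtf2a1 and Gm25848 (chr16:32243712-32243855, minus strand) in Fbxo45 are 90.8% identical copies with different hosts.
Snora23: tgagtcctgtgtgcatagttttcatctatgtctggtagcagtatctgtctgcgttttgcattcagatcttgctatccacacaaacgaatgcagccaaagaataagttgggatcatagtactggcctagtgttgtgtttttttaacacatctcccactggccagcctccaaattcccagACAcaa
Gm25117: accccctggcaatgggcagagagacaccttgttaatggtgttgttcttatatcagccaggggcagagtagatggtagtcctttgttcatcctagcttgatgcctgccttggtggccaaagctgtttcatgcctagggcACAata
Gm25776: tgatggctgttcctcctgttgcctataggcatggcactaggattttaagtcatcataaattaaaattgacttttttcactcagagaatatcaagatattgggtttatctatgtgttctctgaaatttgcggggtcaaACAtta
Gm25848: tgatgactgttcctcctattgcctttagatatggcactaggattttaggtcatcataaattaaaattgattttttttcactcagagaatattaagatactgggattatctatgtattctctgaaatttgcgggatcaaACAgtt

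A second pair of copies, both inside Rpl5, is shown because its 2 members were read at unlike levels. Gm22270 (chr5:107905177-107905308, plus strand) and Gm26387 (chr5:107907345-107907476, plus strand) are 96.9% identical over their aligned bases.
Gm22270: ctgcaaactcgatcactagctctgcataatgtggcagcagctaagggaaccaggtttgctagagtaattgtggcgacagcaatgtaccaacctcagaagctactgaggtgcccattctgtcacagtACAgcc
Gm26387: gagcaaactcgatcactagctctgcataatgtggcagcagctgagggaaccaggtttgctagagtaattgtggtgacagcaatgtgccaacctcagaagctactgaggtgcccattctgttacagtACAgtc

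Box letters matched the names in part. A search of the given strand found an ACA 2 to 4 bases before the end in 12 of 12 Snora members, and both a C box and a D box in 25 of 40 Snord members. Of the 95 members with other names, 21 held both C and D boxes and 51 held the ACA end without them. Over all 155 members, 50 held both boxes, 66 only the ACA end and 39 neither. Both boxes were found in 32.3% of members against 19.9% of all 1558 genes, and the ACA in 43.9% against 44.3%. Where no match was found, these exact letters were missing from the window and nothing more is meant.

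Snord and Snora genes with reads differed from those without in their position in other genes. Of the 98 Snord genes of the table, 41 lay over an exon of another gene on the same strand and 2 of those had a read, whereas 38 of the 57 clear of such exons did. Of the 42 Snora genes, 28 lay over an exon and none had a read, against 12 of the 14 others. The Scarna genes did not show this, with reads on 3 of the 4 over an exon and on 5 of the 5 others. Over all 1558 genes the shares with reads were 4.80% and 10.8%. Counting programs may leave a read that touches 2 genes unassigned, and the setting used here is not given in the sources used, so the part of this overlap was not tested. Snord and Snora genes listed at 0 are therefore not read as absent. The gap was plain among the snoRNAs that act in the cleavage or processing of precursor ribosomal RNA. Of 14 gene names, 12 were at 0 in every library. Among them were the U3 genes (Rnu3a, Rnu3b1 to Rnu3b4), Snord14a, Snord22 (U22), Snora73a and Snora73b. Of the 17 rows behind these names, 16 overlapped an exon of another row. Members with other names that align with these genes did have reads: Gm24949, Gm22865 and Gm25419 with U3 (95.8%, 90.7% and 84.2% identity to Rnu3b4) at 2, 2 and 6 reads in all, and Gm26448 and Gm22053 with Snora73b and Snora73a (89.1% and 89.7%) at 24 and 3. In the imprinted regions, 7 of the 23 snoRNA genes between Dlk1 and Dio3 had reads, 89 in all, and 1 of the 210 between Ube3a and Snrpn did, Snord116l14 with 12 reads. Genes at 0 in the named classes also had near-identical copies more often. A copy of at least 90% identity stood in the table for 5 of 40 Snord members against 26 of the 58 Snord genes at 0, and for 5 of 12 Snora members against 20 of the 30 at 0. For genes with other names the shares were 37.9% of members and 30.9% of genes at 0. The part of these copies was not tested.

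Host genes of the members were mainly coding genes. A ribosomal protein gene hosted 25 members (16.1%, against 3.72% of all snoRNA and scaRNA genes) and a translation factor gene hosted 5 (3.23% against 1.16%). Another coding gene hosted 81 and a lncRNA 16, while 28 lay in no annotated host (18.1% against 55.4%). These shares are descriptions of genes that had reads.

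The reads were uneven among members. In total, 14267 reads fell on the 155 genes, and the first 10 genes held 49.3% of them. A set of 81 members had at least 20 reads over the 4 libraries, whereas 37 had 3 reads or fewer. In all, 89 members had reads in every library. The 81 comprised 31 Snord genes, 8 Snora genes, 2 Scarna genes and 40 others.

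As a share of all reads, members took 1.08% of WT library 1 (95% Wilson interval 1.05 to 1.10%) and 0.410% of WT library 2 (0.395 to 0.426%). They took 0.285% of eIF5A-KO library 1 (0.273 to 0.298%) and 0.407% of eIF5A-KO library 2 (0.392 to 0.423%). WT library 1 stood far above the other 3 libraries, and the intervals of WT library 2 and eIF5A-KO library 2 overlapped. The mean was 0.743% ± 0.471 (SD, n = 2) under WT and 0.346% ± 0.0862 (SD, n = 2) under eIF5A-KO, with an exact two-sided permutation p of 0.33, the smallest that 2 against 2 libraries allow. The intervals cover counting error only.

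The Snord genes took 0.3325% and 0.0925% of reads in WT libraries 1 and 2, and 0.0848% and 0.128% in eIF5A-KO libraries 1 and 2. The Snora genes took 0.0603% and 0.0226% under WT, and 0.0342% and 0.0249% under eIF5A-KO. In both classes the groups overlapped, because WT library 2 lay below at least 1 of the libraries labelled eIF5A-KO. The exact permutation p was 0.667 for the Snord share and 1 for the Snora share.

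**Figure D1:**
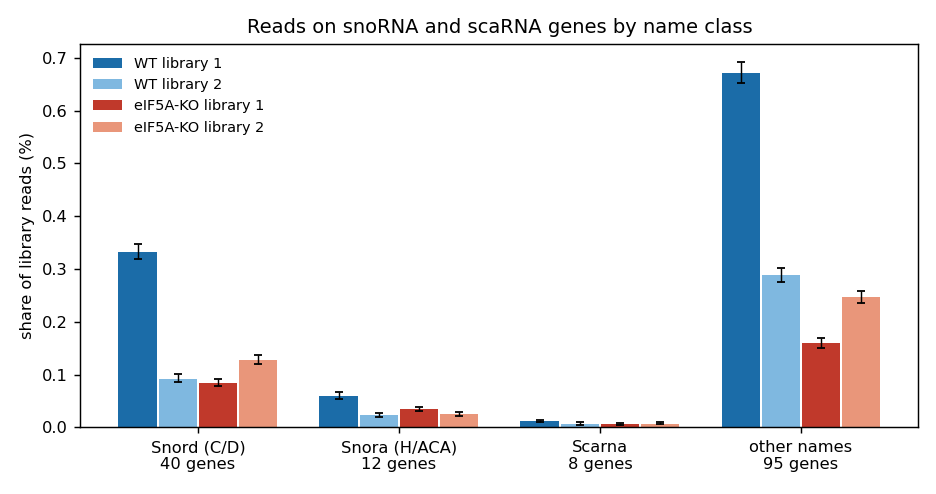
Share of library reads (%, vertical axis) on members of 4 name classes in each of the 4 libraries, with 95% Wilson intervals as error bars. WT library 1 is the highest bar in each class, and in the Snord class WT library 2 (0.0925%) lies between eIF5A-KO library 1 (0.0848%) and eIF5A-KO library 2 (0.128%).

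Snord reads outnumbered Snora reads 5.51 to 1 in WT library 1 and 4.10 to 1 in WT library 2. The ratio was 2.48 in eIF5A-KO library 1 and 5.14 in eIF5A-KO library 2. The ratio of eIF5A-KO library 2 fell inside the WT range, so the groups overlapped. The mean log2 ratio was 2.25 ± 0.30 (SD, n = 2) under WT and 1.84 ± 0.75 (SD, n = 2) under eIF5A-KO, a difference of -0.41 with an exact two-sided permutation p of 0.667. Without eIF5A-KO library 1 the difference was 0.11, the opposite sign. Classed by box letters in place of names, the ratio of C and D box reads to ACA reads was 1.60 and 0.601 under WT, and 0.725 and 0.981 under eIF5A-KO. A difference between the classes was therefore not detectable with 2 libraries a group.

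Gene by gene, values were compared as log2(RPKM + 1) with limma over all 11363 genes whose 4 values averaged 1 RPKM or more. RPKM was scaled by library sizes that differ from the read totals, so that the median fold change of all genes tested was 0.00 on the log2 scale. On this scale the median of the 155 members was -1.03 (111 below 0 and 44 above), and without WT library 1 it was -0.20 (85 below and 62 above), whereas without WT library 2 it was -1.87. With all 4 libraries, the median of the 40 Snord genes was -1.44, that of the 12 Snora genes -1.11, that of the 8 Scarna genes -0.97 and that of the 95 others -0.77. In 33 members a group had no read (14 under eIF5A-KO and 19 under WT). With those at the bound that 3 reads over the group give, or left out where the other group had 3 reads or fewer, the medians were -1.09 for members, -1.44 for Snord, -1.11 for Snora, -1.24 for Scarna and -0.91 for the others. Among the 81 members with at least 20 reads, none of which had a group at 0, the median was -1.10 with 71 below 0.

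Members carried few calls after adjustment. At a Benjamini-Hochberg adjusted p under 0.05, 1 member was lower under eIF5A-KO and 0 were higher, where limma called 0.0968% of all genes lower and 0.0088% higher. That member, Scarna17, a box C/D scaRNA, had 2 reads in WT library 1, 1 read in WT library 2 and 0 in both others (adjusted p = 0.0313). The call was lost under 6 of the 7 alternatives that kept all 4 libraries and tested it (adjusted p from 0.0277 to 0.139). At an unadjusted p under 0.05, 28 members were lower and 3 higher, against a background of 4.46% of all genes lower and 2.86% higher. With every library scaled to the same read total in place of the authors' size, these counts were 10 lower and 4 higher, against 1.5% of all genes lower and 14.8% higher, and the median of all genes moved to 0.47 while that of the members was -0.47.

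A second test, limma-voom on the recovered reads of genes with at least 20 reads, called 4 of 81 members lower at an adjusted p under 0.05 and 0 higher, where 0.425% of 9179 genes were lower. At an unadjusted p under 0.05 it placed 33 members lower and 0 higher, against 6.66% of genes lower and 3.48% higher. The 4 were Gm25776, Gm25835, Gm22270 and Gm25117, and limma on log2(RPKM + 1) gave each an adjusted p between 0.635 and 0.672. Both tests used the library sizes behind the RPKM, so they share that scaling. limma-voom was not run at the same read total.

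Gm25776, an ACA-ended RNA in Gtf2a1, was the steadiest of these. Its level was 3491 and 3340 RPKM in WT libraries 1 and 2, and 840 and 719 RPKM in eIF5A-KO libraries 1 and 2. The groups stood well apart, at 3416 ± 107 against 780 ± 86.1 (SD, n = 2), with a limma-voom log2 fold change of -2.13 (SE 0.44, adjusted p = 0.0309). Its copy in Fbxo45, Gm25848, stood at 2638 and 4334 RPKM under WT and 597 and 1281 RPKM under eIF5A-KO, also with no overlap (limma-voom log2 fold change -1.95, adjusted p = 0.0889). Since reads shared by the 2 copies cannot be traced, their levels are not separate evidence.

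Gm22270 and Gm26387, the copies inside Rpl5, were read at unlike levels. Gm22270 was read at 2903 and 1656 RPKM under WT and at 677 and 244 RPKM under eIF5A-KO (limma-voom log2 fold change -2.40, adjusted p = 0.0309). Gm26387 was read at 50.3 and 32.2 RPKM under WT and at 25.1 and 122 RPKM under eIF5A-KO, from 22 reads in all. Its groups overlapped (limma-voom log2 fold change 0.21, adjusted p = 0.960). Reads shared by these copies cannot be traced either, and the difference between their fold changes was not tested.

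Gm25835, with C and D boxes, and Gm25117, with an ACA end, completed the 4. Gm25835 stood at 1808 and 663 RPKM under WT and 184 and 224 RPKM under eIF5A-KO (limma-voom log2 fold change -2.41, adjusted p = 0.0309). Gm25117 stood at 1129 and 2329 RPKM under WT and 61.3 and 542 RPKM under eIF5A-KO (limma-voom log2 fold change -3.15, adjusted p = 0.0317). The groups did not overlap in either gene, although the WT libraries lay further apart than those of Gm25776. With a library left out, the limma log2 fold change of Gm25117 ranged from -4.70 without eIF5A-KO library 2 to -1.58 without eIF5A-KO library 1, and that of Gm22270 from -3.16 without eIF5A-KO library 1 to -1.69 without eIF5A-KO library 2. That of Gm25835 ranged from -3.15 without WT library 2 to -1.71 without WT library 1, and that of Gm25776 from -2.25 to -2.02. Gm25117 has 4 copies of at least 90% identity in the table.

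The most read member of all was Gm26202, a box C/D RNA in an intron of Rpl17, which took 12.5% of the members' reads. It had 1314 and 182 reads in WT libraries 1 and 2, and 59 and 234 reads in eIF5A-KO libraries 1 and 2. Per length and library size this gave 33532 and 5943 RPKM against 1001 and 4457 RPKM, so that WT library 2 was nearer to eIF5A-KO library 2 than to WT library 1.

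Among the genes named Snord, Snord104 had the most reads, and Gm22486, which RefSeq names Snord94, came next to it with 547. The level of Snord104 was 7772 and 2517 RPKM under WT, and 803 and 1875 RPKM under eIF5A-KO (log2 fold change -1.85, SE 0.88, limma adjusted p = 0.676). Snord83b, in an intron of the ribosomal protein gene Rpl3, stood at 4553 and 1897 RPKM under WT, and 985 and 1027 RPKM under eIF5A-KO (log2 fold change -1.55, limma adjusted p = 0.676). In both, WT library 1 was the highest library and WT library 2 lay above both libraries labelled eIF5A-KO.

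The same order held in Snord37, hosted by the elongation factor gene Eef2, at 3058 and 730 RPKM against 431 and 387 RPKM. Snord55 stood at 3401 and 752 RPKM against 628 and 376 RPKM. Snord71, Snord15a, Snord58b, Snord82 and Snord32a also had no overlap between the groups, with log2 fold changes from -2.25 to -0.78. Their limma adjusted p-values lay between 0.675 and 0.706 with those of Snord37 and Snord55 included.

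A pair of well-read Snord genes had overlapping groups. Snord49a stood at 5322 and 708 RPKM under WT, and 383 and 1238 RPKM under eIF5A-KO. Snord87, from the snoRNA host gene Snhg6, stood at 1010 and 1537 RPKM under WT and 520 and 2163 RPKM under eIF5A-KO, where eIF5A-KO library 2 was the highest of the 4 (log2 fold change -0.23, limma adjusted p = 0.941).

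**Figure D2:**
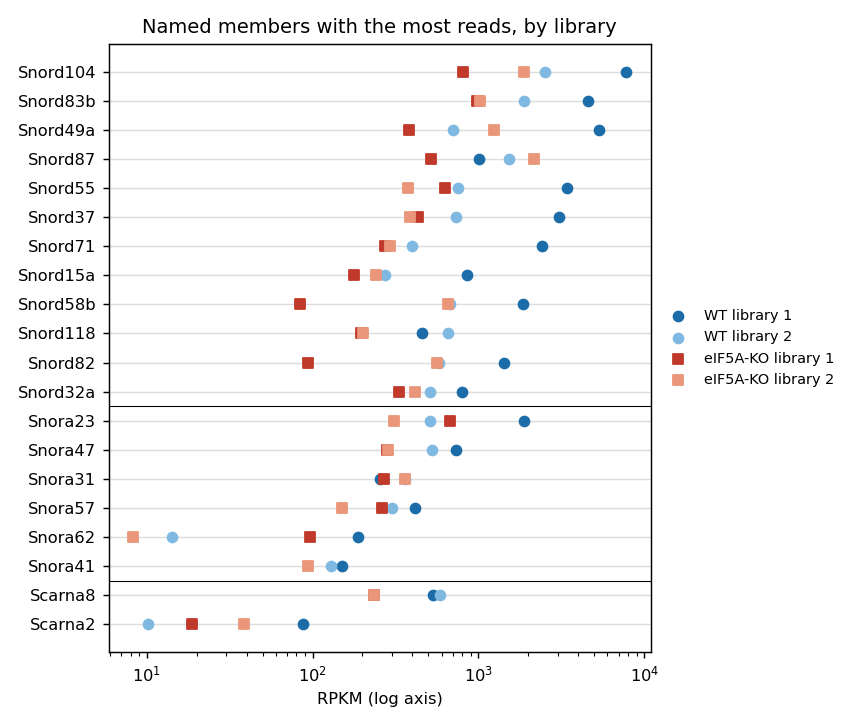
Level in RPKM (horizontal log axis) of the 12 Snord, 6 Snora and the first 2 Scarna genes with the most reads, with 1 point a library. WT library 1 lies at the right in most Snord genes. Snord87, Snord118, Snora31 and Scarna8 do not follow that order, and Snora41 in eIF5A-KO library 1, at 0, is not drawn.

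Of the snoRNA genes listed by name for precursor ribosomal RNA, Snord118 and Snord13 had reads. Snord118 is U8, which is needed for maturation of the large subunit RNAs. It stood at 455 and 660 RPKM under WT, and 196 and 202 RPKM under eIF5A-KO (log2 fold change -1.46, SE 0.52, unadjusted p = 0.0323, limma adjusted p = 0.672). Its groups did not overlap, and here WT library 2 was the higher of the WT libraries. Snord13, U13, which acts in small subunit RNA maturation, stood at 144 and 163 RPKM against 42.4 and 119 RPKM from 31 reads in all (log2 fold change -1.09, limma adjusted p = 0.697).

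The Snora genes were read less. Snora23 stood at 1875 and 508 RPKM under WT and 671 and 310 RPKM under eIF5A-KO, so the groups overlapped. Snora47, hosted by Zbed3, stood at 733 and 523 RPKM under WT and 280 and 287 RPKM under eIF5A-KO, with no overlap (log2 fold change -1.13, SE 0.53, limma adjusted p = 0.676). Snora31, hosted by Tpt1, was nearly level at 255 and 359 RPKM against 271 and 362 RPKM (log2 fold change 0.05, SE 0.53).

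Snora57 stood at 415 and 301 RPKM against 261 and 151 RPKM. Snora62 differed widely within WT, at 189 and 14.3 RPKM, and stood at 96.2 and 8.31 RPKM under eIF5A-KO, from 32 reads. Snora41, in Eef1b2, stood at 151 and 129 RPKM against 0 and 93.8 RPKM, from 30 reads. Fold changes of genes read this little rest on single libraries.

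Genes with the scaRNA biotype numbered 15, of which 7 had at least 20 reads, and all 7 had log2 fold changes below 0, from -3.51 to -0.18. Gm25492, hosted by Bud23, stood at 2739 and 3225 RPKM under WT and 1179 and 1641 RPKM under eIF5A-KO. Its replicate libraries were close to each other (limma-voom log2 fold change -1.09, adjusted p = 0.411). Gm23751, hosted by Chd4, stood at 3464 and 1373 RPKM against 219 and 792 RPKM (log2 fold change -2.39, limma adjusted p = 0.672).

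Scarna8, hosted by Haus6, was steady within groups. Its level was 532 and 583 RPKM under WT and 236 in both libraries labelled eIF5A-KO (log2 fold change -1.24, SE 0.51, limma adjusted p = 0.672). Scarna2, which guides changes in U2, had no host and overlapped, at 88.1 and 10.2 RPKM against 18.6 and 38.9 RPKM. Scarna13 and Scarna10 had 15 and 12 reads in all and log2 fold changes of -1.55 and -0.71.

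Genes were also counted by whether their 4 values overlapped between groups. Of the 81 with at least 20 reads, 49 were lower in both libraries labelled eIF5A-KO and 1 was higher, against 21% of all genes of that depth lower and 22.7% higher. By class these were 20 of 31 Snord genes and 5 of 8 Snora genes, all lower. Other short RNA genes of the same depth did likewise, with 84 of 119 miRNA genes and 38 of 50 snRNA genes lower and none higher. Their median log2 fold changes were -1.79 and -1.38, against -1.10 for the 81 members. At an unadjusted p under 0.05, limma placed 35.3% and 36% of them lower and 0 higher. Of the 81 members, 24.7% were lower and 1 was higher by that test.

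The 5 members of at least 20 reads with the lowest log2 fold changes among these were Snord11, Snora41, Gm24289, Gm22858 and Gm25117. Snord11, in an intron of Nop58, stood at 257 and 75.8 RPKM against 52.5 and 0 RPKM from 20 reads. The places of Snord11 and Snora41 rest on an eIF5A-KO library at 0. Without that library, the log2 fold change of Snord11 went from -4.27 to -1.39 and that of Snora41 from -3.85 to -0.57. Gm24289, a scaRNA gene in Tipin, stood at 344 and 126 RPKM against 16.3 and 18.3 RPKM (log2 fold change -3.51, SE 0.59, limma adjusted p = 0.311). Gm22858, in Wdr43, stood at 284 and 168 RPKM against 14.5 and 32.6 RPKM (log2 fold change -3.26, SE 0.58, limma adjusted p = 0.357). Both had at most 2 reads in each library labelled eIF5A-KO.

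The only member of at least 20 reads that was higher without overlap was Gm23442, an ACA-ended RNA in Prrc2a. It had 1 and 0 reads under WT and 10 and 12 reads under eIF5A-KO, which is 12.4 and 0 RPKM against 82.3 and 111 RPKM. Its limma adjusted p was 0.601, and by limma-voom it was 0.544.

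**Figure D3:**
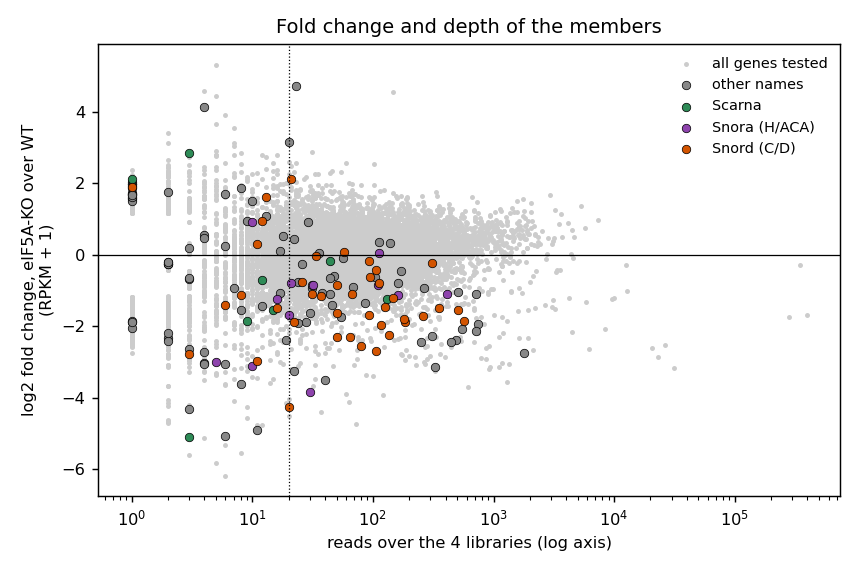
Log2 fold change (eIF5A-KO over WT, on RPKM + 1) against the reads of each gene over the 4 libraries (log axis), for the 11363 genes tested in grey and the 155 members in colour by name class. To the right of the dotted line at 20 reads, 71 of 81 members lie below 0, and to its left the values spread widely on both sides of 0.

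Several members share a host gene. Rpl13a hosts Snord32a, Snord34 and Snord35a, which are box C/D RNAs known from cells under lipid stress. Their log2 fold changes were -0.78, -2.68 and -2.56, with Snord34 at 1682 and 485 RPKM against 78.8 and 248 RPKM. The fourth RNA of that gene, Snord33, was at 0 and overlapped an exon. The lncRNA 2410006H16Rik hosts Snord49a, Snord49b and Snord65, at -1.49, -1.68 and -0.02. Wdr43 hosts Gm22858, at -3.26, and Snord92, at 2.13. Snord92 had 11 and 0 reads under WT and 3 and 7 under eIF5A-KO, too few and uneven for a direction. The 3 RNAs of Rpl17 were alike, between -2.74 and -2.25. Differences between RNAs of a host were not tested.

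Host genes mostly had higher fold changes than the RNAs in their introns. For 67 members of at least 20 reads with a host that was tested, the median log2 fold change was -1.10, while that of their 57 host genes was 0.24. The member lay below its host in 58 of 67. All coding genes with at least 20 reads had a median of 0.06, so a gap to coding genes is not particular to hosts. The host Rpl13a was itself highest in WT library 1, at 15.7 and 2.01 RPKM under WT. It stood at 2.61 and 3.51 RPKM under eIF5A-KO (log2 fold change -0.81). Rpl17 stood at 37.5 and 41.6 RPKM under WT and 66.5 and 104 RPKM under eIF5A-KO (log2 fold change 1.06), whereas its 3 members ranged from -2.74 to -2.25. By kind of host, the median of members was -1.38 for 18 in ribosomal protein genes, -1.87 for 5 in translation factor genes and -1.10 for 40 in other coding genes. Across the 67 members, which share libraries and in part hosts, Pearson's r between member and host was -0.26. Of the 57 hosts, 1 was lower and 0 were higher at an unadjusted p under 0.05 by limma.

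**Figure D4:**
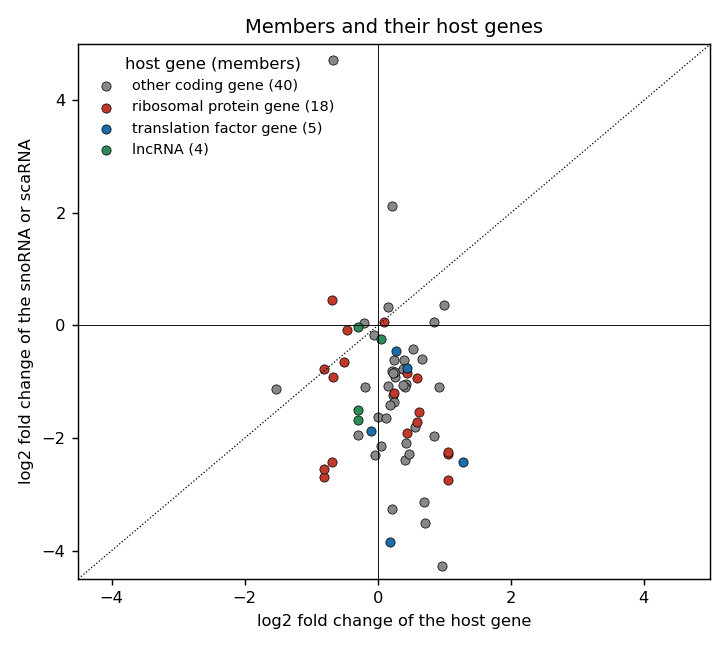
Log2 fold change of each member with at least 20 reads (vertical axis) against that of its host gene (horizontal axis), coloured by kind of host, with the dotted line marking equal values. Of the 67 points, 58 lie below the line, and most hosts lie between -1 and 1.

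Genes for the proteins that bind snoRNAs gave no call. Fbl, Nop56, Nop58 and Snu13 code for core proteins of the C/D particle, and Rrp9 for a protein of the U3 particle. Of these 5 genes, limma called 0 at an adjusted or an unadjusted p under 0.05, and limma-voom 0 and 1. Their log2 fold changes ran from -0.28 to 0.96. Fbl, the methyltransferase fibrillarin, stood at 5.52 and 5.04 RPKM under WT and 4.98 and 6.47 RPKM under eIF5A-KO. Of the 4 core genes of the H/ACA particle, either test called 0 at an adjusted and 1 at an unadjusted p under 0.05. Dkc1, the pseudouridine synthase dyskerin, stood at 1.21 and 3.09 RPKM against 7.22 and 10.5 RPKM (log2 fold change 1.70, SE 0.46, limma adjusted p = 0.629). It was higher in both libraries labelled eIF5A-KO, from 3 and 6 reads under WT and 27 and 35 reads under eIF5A-KO. Nhp2 stood at 30.4 and 74.1 RPKM against 20.2 and 47.5 RPKM. Of 10 assembly factors and 7 maturation factors, both tests called 0 with or without adjustment, with medians of 0.44 and 0.15. Dbr1, which opens intron lariats, had the highest value of the maturation genes (log2 fold change 1.10, limma adjusted p = 0.675).

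The size of the difference depended on WT library 1. It had the highest RPKM of the 4 in 57 of the 81 members with at least 20 reads, and WT library 2 in 13. Without WT library 1, the median log2 fold change of the 31 Snord genes went from -1.49 to -0.63 and that of the 8 Snora genes from -0.97 to -0.72, with 24 and 7 genes still below 0. The count at an unadjusted p under 0.05 without it was 19 lower and 13 higher, where that fit placed 5.7% of all genes lower and 3.93% higher. In this fit WT is 1 library, which is assumed to vary like the libraries labelled eIF5A-KO, so its p-values are a weak guide and the medians are the firmer values. Without WT library 2 the medians were -2.12 and -1.49. Without eIF5A-KO library 1 they were -1.17 and -1.17, and without eIF5A-KO library 2 they were -1.48 and -0.71. The share of other read classes moved with the label as well. Reads on protein-coding genes made up 41.5% and 33.9% of the WT libraries and 65.4% and 59.2% of those labelled eIF5A-KO, mitochondrial rRNA 39.1% and 30.1% against 15.0% and 18.5%, and miRNA genes 4.30% and 16.8% against 2.31% and 2.85%. The part of this make-up in the members' values was not tested.

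**Figure D5:**
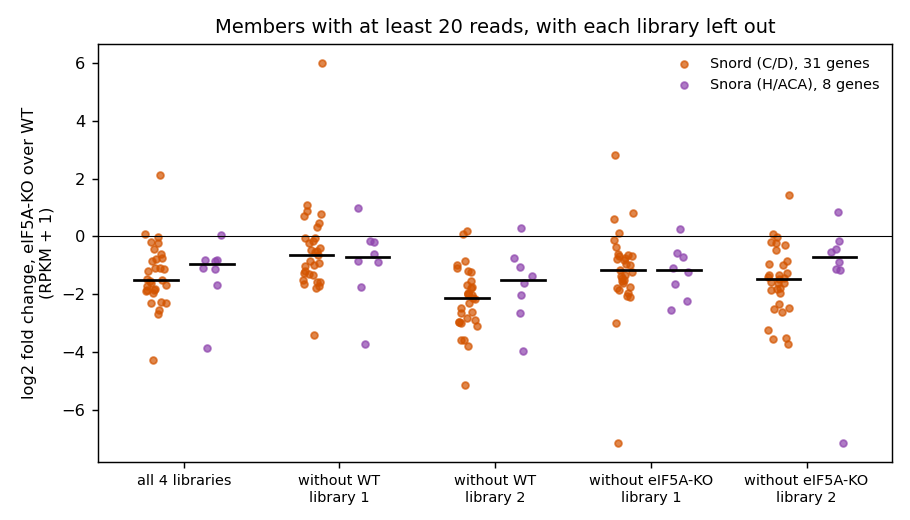
Log2 fold change (eIF5A-KO over WT, on RPKM + 1) of the 31 Snord and 8 Snora genes with at least 20 reads, with all libraries and with each library left out in turn, where black bars are medians. The Snord median moves from -1.49 to -0.63 without WT library 1 and to -2.12 without WT library 2, and stays below 0 in each case.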

How the data were processed

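Ribosome-protected fragments of 4 libraries (2 WT and 2 eIF5A-KO, grouped by title) were analysed. Per the study's methods, the authors removed low-quality, rRNA and tRNA reads, mapped with TopHat2 to mm10 and an Ensembl annotation, and counted with HTSeq. The methods name the annotation release, but the strand setting and tool versions are not given in the sources used here. The authors deposited RPKM values. Multiplied by gene length, 100% of values above 0 were whole multiples of a step (tolerance 0.001), which gave reads per gene. The library sizes behind the RPKM were 602863, 471136, 906990 and 807705, against 648386, 642429, 704006 and 650210 reads, so 1 read on 100 bases was worth 16.6, 21.2, 11.0 and 12.4 RPKM. limma (version 3.58.1, R 4.3.3, trend=TRUE) was run on log2(RPKM + 1) over genes whose 4 values averaged 1 RPKM or more, with Benjamini-Hochberg adjustment. Shares and ratios were compared by exact two-sided permutation tests. Alternatives included limma-voom on recovered reads (with the library sizes behind the RPKM), other filters, scalings and pseudocounts, and leaving out each library. The code was tested on simulated data. Replicates are separately titled libraries. No source says whether they came from separate cultures or mice, so p-values measure only the spread between these libraries. Hosts, exons and sequences came from GENCODE M21 (GRCm38), and copies from blastn 2.17.0 at 90% identity and coverage. By coordinates, 145 members matched a RefSeq gene.

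Named genes were the 12 Snord, 6 Snora and 4 Scarna genes with the most reads, members at an adjusted p under 0.05, the 5 lowest and 5 highest of the members with at least 20 reads and no overlap, the rRNA-processing list and the particle proteins. Gm25776, Gm25848, Gm22270, Gm26387, Gm25835, Gm26202, Gm25492, Gm23751, Gm22486, the RNAs that share a host and those aligned with U3 or Snora73 (at least 80% of their length) were named after their values were seen. The members and lists were chosen with earlier results of these data known. Same-numbered libraries did not deviate together (correlation 0.06), so the numbers were not taken as pairs.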

Additional observations from a re-analysis of the deposited data

How the results depend on the processing

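Counts of members called, the Snord and Snora medians and the named genes were recomputed under other filters, scalings and tests, and the member share and the Snord to Snora ratio under other denominators and member sets. All were also recomputed with each library left out, where a group of 1 library is assumed to vary like the other group, so calls lost there say little. Other counts and medians were computed once. The count of members lower at an adjusted p under 0.05, which was 1, became 4 by limma-voom and 0 with a pseudocount of 0.1, a floor of 5 RPKM or of 20 reads, no floor, the same read total, trend=FALSE and a replicate block, and ranged from 0 to 0 with a library left out. At an unadjusted p under 0.05, the 28 lower members became 10 with the same read total and 17 to 44 with a library left out. The 3 higher members became 1 with at least 20 reads, 0 by limma-voom and 4 to 13 with a library left out. With the replicate block, 39 members were lower and 3 higher at an unadjusted p, against 4.48% of all genes lower and 2.8% higher, and the block changed no other call. The median of the Snord class (-1.44) ranged from -2.02 to -0.58 with a library left out, and that of the Snora class (-1.11) from -1.99 to -0.56, while the same read total moved them to -0.84 and -0.50. The log2 difference of the Snord to Snora ratio (-0.41) ranged from -0.94 to 0.11 with a library left out, the latter without eIF5A-KO library 1. Of the named genes, 4 with log2 fold changes between -0.84 and 0.05 changed sign. Snord87 reached 0.38 and Scarna2 0.40 with the same read total, and Snora31 -0.065 with the protein-coding total. With a library left out, Snord87 ranged from -1.26 to 0.79, Snora31 from -0.20 to 0.30, Scarna2 from -1.67 to 1.31 and Snora62 from -2.66 to 0.98. The causes were not tested. Depth limits the 74 members under 20 reads, of which 37 had 3 reads or fewer, and 2 libraries a group cannot reach an exact p under 0.33.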
